A study of Homo sapiens with 15 samples.

Results

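A group of 9 genes was followed that together put peptide-filled MHC class I on a cell's surface without lying in the MHC itself, here in the human tumour cells of mouse xenografts. They are B2M, NLRC5, ERAP1, ERAP2, CALR, PDIA3, PSMB10, PSME1 and PSME2. They were chosen by symbol among the 60649 human genes of the deposited count table, 9 of 9 were found, and 9 of 9 were among the 15435 human genes kept by the filter on low counts.

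MHC class I molecules are made of a heavy chain and beta-2-microglobulin, and show peptides from the cell's own proteins to CD8 T cells and natural killer cells. Proteasomes cut proteins into peptides, transporters carry these into the endoplasmic reticulum, aminopeptidases trim them, and chaperones load them onto the heavy chain. Interferons induce much of this machinery, partly through NLRC5, a regulator that is drawn to class I promoters by the RFX, CREB/ATF and NF-Y factors, and tumours often express it at a low level.

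The tumours grew under the skin of BALB/c nude mice, a strain without mature T cells, from transplanted cells of the human lung adenocarcinoma line A549, which all 3 groups share. Mice of the no-stress group (n = 5) were not restrained. Mice of the stress group (n = 5) were restrained 7 days before the cells were transplanted, and mice of the post-stress group (n = 5) 12 days after; the labels leave unsaid whether these are starting days or durations, and the sources used here give no age or sex. Bulk RNA of each tumour gave 1 library, and the labels number the tumours of a group without naming the animals, so that p-values measure the spread between these 15 libraries. The comparisons ask how restraint, a standard stressor of rodents, and its timing relate to these genes in the tumour cells.

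Human counts per library ranged from 12877165 to 15892705, and levels are given as CPM, human counts scaled to a common library total by the trimmed mean of M values (TMM). Mouse counts, from host cells in the tumour, made up 12.4% to 30.2% of a library. The mean share was 22.6% without stress, 21.0% with stress and 17.6% post-stress. This share did not pass an exact 2-sided permutation test in any of the 3 comparisons (unadjusted p = 0.190 to 0.619). With 5 tumours per group that does not show that the shares were alike. Of the A549 markers listed, KRT8 had at least 2983 CPM and AKR1B10 at least 2965 CPM in every library, while KRT19 stayed at or under 0.892 CPM. Markers of human leukocytes and antigen-presenting cells, which could carry class I genes of their own, summed to 6.90 to 16.7 CPM over 12 genes, with MS4A1 at 0 counts in 15 of 15 libraries. Markers of human stroma and endothelium summed to more, 82.5 to 221 CPM over 7 genes, and the source of these counts was not tested. None of the 4 leukocyte markers or 4 stroma markers that could be tested was called in any comparison. A single library stands apart in what follows: tumour 4 of the stress group lacked the high level of B2M and of interferon-stimulated genes of the other 4 stress tumours, so that the calls of the members and of the interferon lists are also given without it. It was picked out on these values, so a fold change or a count that is higher without it follows in part from that choice and is given as a description.

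B2M rose in the stress group and was the only one of the 9 genes called changed there. It encodes beta-2-microglobulin, the light chain that every class I molecule needs to reach the surface. The no-stress tumours 1 to 5 had 338, 418, 269, 379 and 349 CPM, the stress tumours 803, 782, 789, 315 and 686 CPM, and the post-stress tumours 388, 254, 328, 378 and 374 CPM. Stress tumours 1, 2, 3 and 5 lay above all 10 tumours of the other groups, while stress tumour 4 lay inside the range of the no-stress tumours. The mean went from 351 ± 55.2 CPM (SD, n = 5) without stress to 675 ± 207 CPM (SD, n = 5) with stress, 1.93-fold higher (95% interval 1.41 to 2.63; edgeR quasi-likelihood, Benjamini-Hochberg adjusted p = 0.0131 over all tested human genes). Of the human genes tested, 10.5% were called in this comparison and 5.23% were called higher. In bulk tumours a change in how many cells make a transcript and a change in its amount per cell cannot be told apart.

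Without stress tumour 4, the lowest of its group for B2M, the log2 fold change was 1.13 and the adjusted p 0.000320. The call ended when no-stress tumours 1 and 5, whose mouse shares were the highest, were both left out, which was decided with the data in view; there the log2 fold change was 0.92 and the adjusted p was 0.0784 with 3 no-stress tumours left.

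B2M lies on chromosome 15 (hg38, 44711487 to 44718877, plus strand), with no other annotated gene across it. Its promoter is shown because it holds the letters of several elements known from class I genes. The RefSeq sequence (GRCh38.p14, chr15:44711348-44711497, plus strand, 5′ to 3′) has in capitals 2 overlapping copies of the interferon response pattern GAAANNGAAA, then the NF-kB pattern GGGNNNNNCC on both strands, the cyclic AMP core TGACG, and ATTGG, the reverse of a CCAAT box.
B2M: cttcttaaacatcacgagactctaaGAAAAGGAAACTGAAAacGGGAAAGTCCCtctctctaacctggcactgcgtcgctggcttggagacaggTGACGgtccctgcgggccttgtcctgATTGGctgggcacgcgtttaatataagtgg
Counted from the RefSeq transcription start, the interferon patterns begin at -144 and -138, the NF-kB pattern at -126, TGACG at -75 and ATTGG at -49. A match of letters is a description and was not tested as a binding site.

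**Figure D1:**
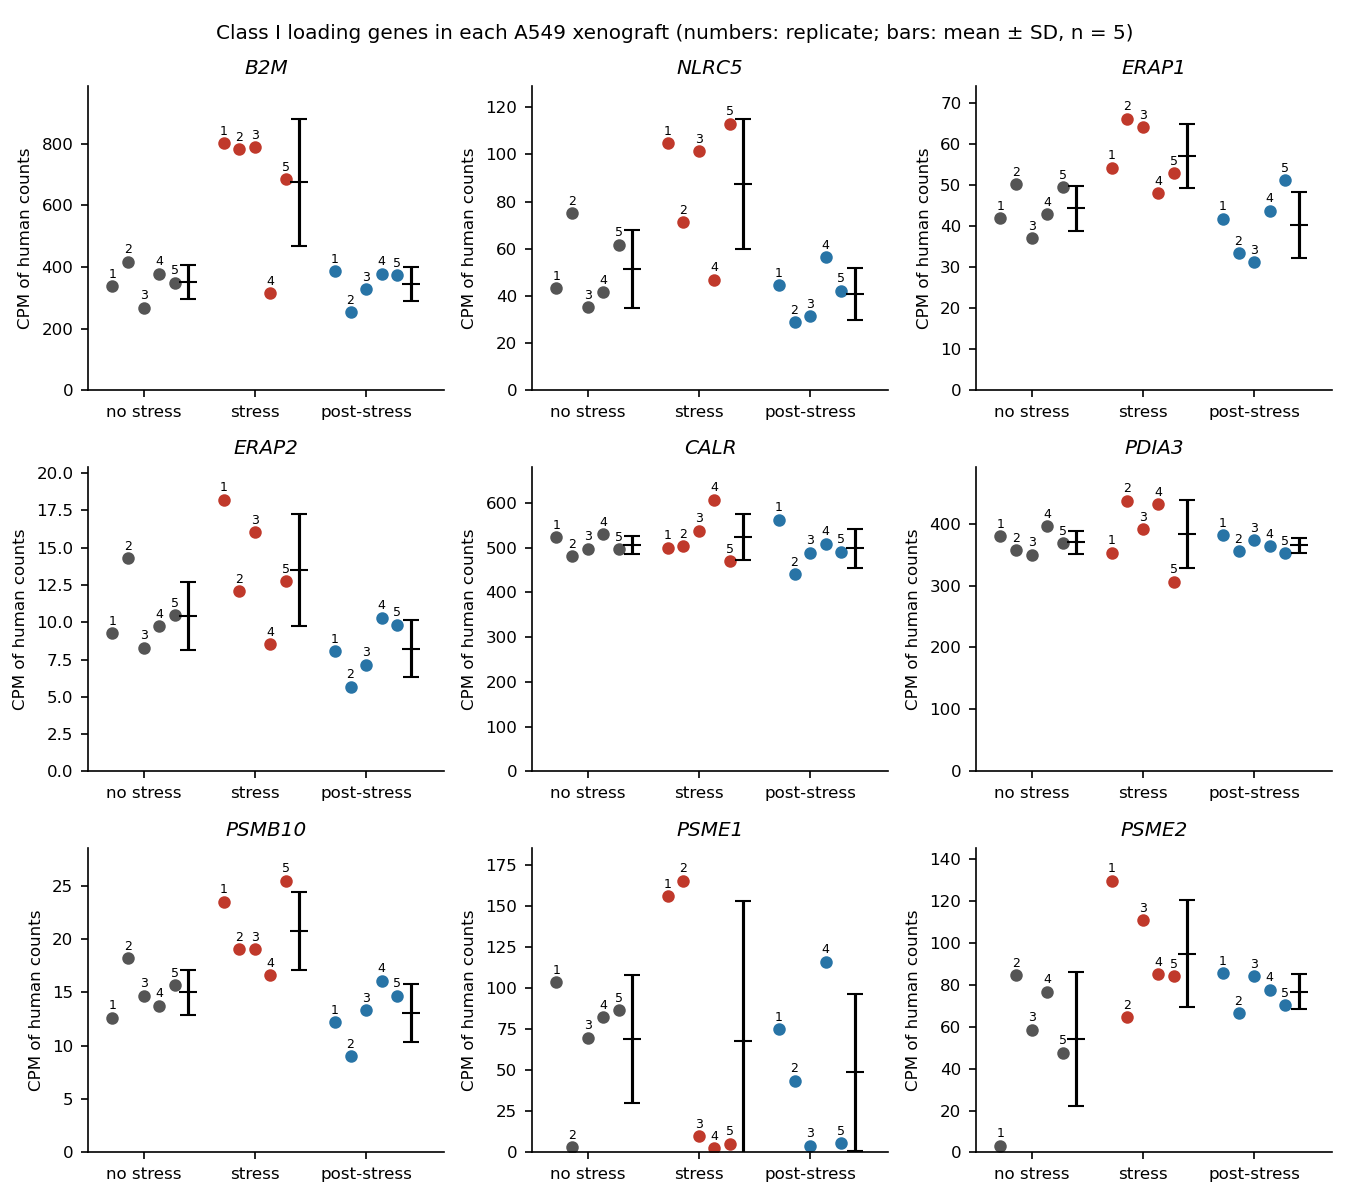
Levels of the 9 genes in each of 15 tumours, as CPM of human counts on linear axes from 0 with a separate scale for each gene; points are tumours numbered by replicate, and the bar beside each group is the mean ± SD (n = 5), with bars cut at 0 for PSME1. Stress tumour 4 lies below the other 4 stress tumours for B2M, NLRC5, ERAP1, ERAP2 and PSMB10, while CALR and PDIA3 stay within narrow ranges and PSME1 splits into high and near-empty tumours in all 3 groups.

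NLRC5 was higher in most stress tumours, but the difference did not pass the test. It is the transactivator of class I genes, of B2M among them. The no-stress tumours had 43.3, 75.0, 35.2, 41.8 and 61.7 CPM, the stress tumours 104.9, 71.2, 101.5, 47.0 and 113.1 CPM, and the post-stress tumours 44.5, 28.9, 31.4, 56.5 and 42.3 CPM. Stress tumours 1, 3 and 5 were above all tumours of the other groups, and stress tumours 2 and 4 were not. The log2 fold change of stress over no stress was 0.77 ± 0.27 (SE; edgeR adjusted p = 0.0860). Without stress tumour 4 it was 0.93 (adjusted p = 0.0250), and without no-stress tumour 2, the highest of its group, it was 0.95 (adjusted p = 0.0461). Both tumours were picked on their values, and leaving out such a tumour raises the fold change. With each of the 15 libraries left out in turn, NLRC5 stayed uncalled in 13 fits (edgeR adjusted p up to 0.183). NLRC5 spans 55 merged exons of chromosome 16 (56989485 to 57083531, plus strand).

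The 8 listed partners of NLRC5 at class I promoters were steadier across libraries. RFX5, RFXAP, RFXANK, NFYA, NFYB, NFYC, CREB1 and ATF1 summed to between 246 and 282 CPM in every library, and none was called between stress and no stress (edgeR; 1 had an unadjusted p under 0.05, DESeq2 called 1 and limma-voom 0). That gene was CREB1, with 66.0 ± 4.48 CPM without stress and 76.7 ± 1.34 CPM with stress (SD, n = 5; adjusted p = 0.0653). RFX5, whose product binds the X box, fell in the post-stress group from 50.5 ± 2.34 to 38.4 ± 4.96 CPM (SD, n = 5; log2 fold change -0.39, edgeR adjusted p = 0.0374), in a comparison that called 0.842% of tested human genes. In the stress group RFX5 had 45.9 ± 3.43 CPM (adjusted p = 0.327 against no stress). Without stress tumour 4, which is in neither of the groups compared but adds to the estimate of spread, 0 of the 8 partners were called in the post-stress comparison.

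The aminopeptidases ERAP1 and ERAP2 trim peptides to the length that class I binds. ERAP1 had 41.9, 50.1, 37.0, 42.9 and 49.5 CPM in the no-stress tumours, 54.2, 66.2, 64.0, 48.0 and 52.9 CPM in the stress tumours, and 41.8, 33.5, 31.1, 43.7 and 51.3 CPM in the post-stress tumours. Stress tumours 1, 2, 3 and 5 were above all no-stress tumours, and stress tumour 4 was not. The log2 fold change of 0.37 ± 0.13 (SE) between stress and no stress had an edgeR adjusted p of 0.0786, or 0.0446 without stress tumour 4.

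ERAP2, the related enzyme encoded beside ERAP1 on chromosome 5 on the other strand, was expressed at a lower level. It had 9.27, 14.3, 8.30, 9.74 and 10.5 CPM without stress, 18.2, 12.1, 16.0, 8.52 and 12.8 CPM with stress, and 8.08, 5.68, 7.15, 10.3 and 9.84 CPM post-stress. Stress and no-stress tumours overlapped widely, with 2 of 5 stress tumours above the highest no-stress tumour (log2 fold change 0.37 ± 0.20, SE; edgeR adjusted p = 0.255; 0.51 and 0.0938 without stress tumour 4). Per kilobase of exon, merged over all annotated transcripts, the mean level over no-stress tumours was 5.58 CPM for ERAP1 and 1.40 CPM for ERAP2. ERAP1 shares 3.76% of its exon bases with CAST on the opposite strand, and the sources used here do not say whether counting used strand.

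The RefSeq ERAP1 promoter (GRCh38.p14, chr5:96807916-96807968, minus strand, 5′ to 3′) has the reverse of the interferon response pattern, in capitals, 2 bases past the transcription start.
ERAP1: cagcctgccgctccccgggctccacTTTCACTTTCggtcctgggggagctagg
In the ERAP2 promoter window no such match was found.

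PSMB10 encodes an inducible catalytic subunit of the immunoproteasome, which replaces a standard subunit and alters which peptides are cut. It had 12.6, 18.2, 14.7, 13.8 and 15.7 CPM in the no-stress tumours, 23.5, 19.0, 19.1, 16.6 and 25.5 CPM in the stress tumours, and 12.2, 9.03, 13.3, 16.1 and 14.7 CPM in the post-stress tumours. Stress tumours 1, 2, 3 and 5 exceeded all no-stress tumours, and all 5 stress tumours exceeded all 5 post-stress tumours. The log2 fold change was 0.47 ± 0.15 (SE; edgeR adjusted p = 0.0569) against no stress and 0.67 ± 0.15 (SE; adjusted p = 0.105) against post-stress. Without stress tumour 4 the adjusted p was 0.0313 and 0.0278. PSMB10 shares 34.8% of its exon bases with the protein-coding gene AC040162.1 on the same strand, so that reads there may have been left uncounted or split.

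The RefSeq PSMB10 promoter (GRCh38.p14, chr16:67936837-67936896, minus strand, 5′ to 3′) has the interferon response pattern, in capitals, beginning 21 bases before the transcription start.
PSMB10: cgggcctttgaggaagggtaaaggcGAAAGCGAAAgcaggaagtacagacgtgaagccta

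Genes of the standard proteasome were mostly not called. Some of them had few counts per library, with 12 to 35 for PSMA2, 56 to 104 for PSMA6 and 41 to 525 for PSMB3. Their levels are uncertain, and the cause was not tested. Of 18 listed subunits, assembly factors and other activators, 0 were called higher and 1 was called lower between stress and no stress, with a median log2 fold change of -0.04 beside -0.01 over all tested genes. The gene called was PSME3, the nuclear proteasome activator, which fell from 231 ± 15.8 to 187 ± 11.6 CPM (SD, n = 5; edgeR adjusted p = 0.0106). PSMB5, a standard catalytic subunit, had 157 ± 8.003 CPM without stress and 136 ± 1.76 CPM with stress (SD, n = 5; adjusted p = 0.0639).

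CALR and PDIA3 belong to the loading complex in the endoplasmic reticulum: calreticulin holds the heavy chain by its sugar, and PDIA3 is the thiol oxidoreductase that works with it. CALR had 524, 480, 498, 530 and 497 CPM without stress, 499.6, 504, 538, 607 and 470.4 CPM with stress, and 562, 441, 489, 509 and 491 CPM post-stress. PDIA3 had 379.7, 357, 349.7, 396 and 368 CPM without stress, 353, 437, 391, 431 and 306 CPM with stress, and 381, 356, 373, 363 and 352 CPM post-stress. The groups overlapped for both genes, and stress tumour 4 had the highest CALR of all 15 tumours. The fold of stress over no stress was 1.04 for CALR (95% interval 0.915 to 1.17; edgeR adjusted p = 0.758) and 1.04 for PDIA3 (95% interval 0.911 to 1.18; adjusted p = 0.759). Per kilobase of exon CALR had the highest value of the 9 genes in each group, at 186 CPM without stress against 57.7 CPM for B2M. That length merges the exons of all annotated transcripts, 2714 bases for CALR and 6079 for B2M. The order depends on it, and the length of the transcripts present was not measured. PDIA3 shares 14.8% of its exon bases with ELL3 on the opposite strand and has a processed copy, PDIA3P1, with 4635 counts over all libraries beside 80114 for PDIA3, so that a part of its reads could lie on the copy.

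The RefSeq CALR promoter (GRCh38.p14, chr19:12938359-12938427, plus strand, 5′ to 3′) is shown as the contrast among these promoters: it has no GAAANNGAAA, and the capitals mark the reverse of the endoplasmic reticulum stress element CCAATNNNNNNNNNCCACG, beginning at -225.
CALR: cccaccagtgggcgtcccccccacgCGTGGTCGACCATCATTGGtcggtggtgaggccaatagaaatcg
Among 14 other endoplasmic reticulum chaperones and stress genes tested, 1 was called higher between stress and no stress and 0 lower (median log2 fold change 0.00). It was DNAJB9, a co-chaperone, with 53.3 ± 16.97 CPM without stress and 82.0 ± 9.41 CPM with stress (SD, n = 5; edgeR adjusted p = 0.0322). That call ended without no-stress tumours 1 and 5 (adjusted p = 0.188).

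PSME1 and PSME2 encode the 2 subunits of the proteasome activator PA28, which opens the proteasome's entry and is induced by interferon gamma. Their counts switched between tumours in a way that followed no group. PSME1 had 1479, 48, 1130, 1149 and 1167 counts in the no-stress tumours, 2075, 2375, 150, 37 and 75 counts in the stress tumours, and 1087, 638, 58, 1523 and 77 counts in the post-stress tumours. PSME1 was thus near-empty in 6 of 15 tumours, with such tumours in each of the 3 groups, while CALR in the same libraries had 6447 to 8984 counts.

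PSME2 had 45, 1274, 946, 1071 and 640 counts in the no-stress tumours, 1724, 927, 1649, 1258 and 1195 counts in the stress tumours, and 1240, 972, 1198, 1018 and 985 counts in the post-stress tumours. It was near-empty in no-stress tumour 1 alone, where PSME1 was not. Of 7552 human genes with a median of at least 20 CPM, 17 had any library under 1/5 of their median and 3 had more than 2 such libraries. Those 3 were PSME1, the proteasome gene PSMC4, and a row of a pseudoautosomal copy. Genes with a lower median, which include any that are near-empty in most libraries, are not part of that count.

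The fitted differences are therefore wide. For PSME1 the log2 fold change of stress over no stress was -0.03 ± 1.19 (SE; edgeR adjusted p = 0.991), and for PSME2 0.81 ± 0.51 (SE; adjusted p = 0.342). The value of PSME2 was 0.51 without no-stress tumour 1, 0.37 without no-stress tumours 1 and 5, and 1.36 with limma-voom, and that of PSME1 was -1.14 with limma-voom and -1.22 with the replicate block. Both genes lie side by side on chromosome 14 (24136158 to 24138967, plus strand, and 24143362 to 24147570, minus strand), among genes that were often empty in all libraries. Of 27 protein-coding genes within 150 kb of PSME1, 17 stayed under 1 CPM in every library, as did 17 of 28 around PSME2, against 34.8% of 19879 protein-coding genes in all. For the other 7 members this was 0 of 4 around B2M, 1 of 7 around NLRC5, 0 of 3 around each of ERAP1 and ERAP2, 6 of 16 around CALR, 6 of 13 around PDIA3 and 5 of 18 around PSMB10. IRF9, the interferon signalling gene in that stretch, had 0 to 7 counts per library, and TINF2 10 to 149. Other neighbours also switched, with 23 to 337 counts per library for NEDD8 and 19 to 518 for GMPR2. Neighbours with a low median and a far higher highest library numbered 7 around PSME1 and 8 around PSME2. Around each of the other 7 members there were 0. The cause was not tested.

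**Figure D2:**
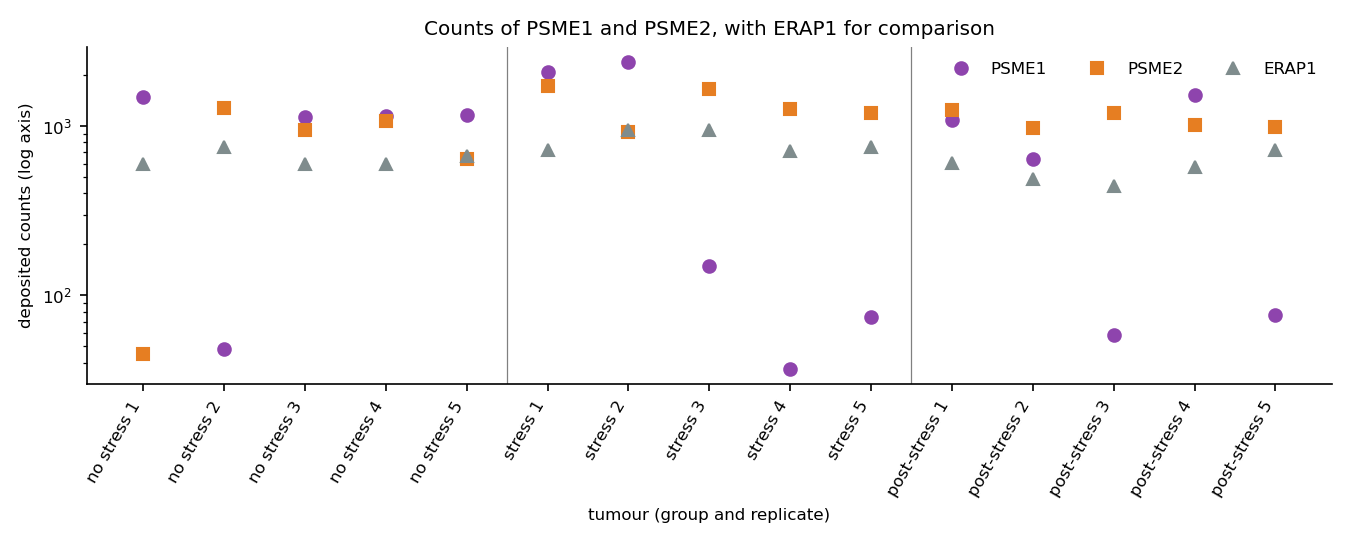
Deposited counts of PSME1, PSME2 and, for comparison, ERAP1 in each of the 15 tumours, on a log axis; each symbol is 1 tumour, and vertical lines part the no-stress, stress and post-stress groups. PSME1 lies at 37 to 150 counts in 6 tumours and at 638 to 2375 in the others, PSME2 falls to 45 counts in no-stress tumour 1, and ERAP1 stays between 444 and 951.

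Both PA28 promoters hold the interferon response pattern, in capitals, on the forward strand of PSME2 and as its reverse in PSME1. They come from RefSeq (GRCh38.p14, chr14:24136174-24136223, plus strand, for PSME1 and chr14:24146604-24146663, minus strand, for PSME2, each 5′ to 3′).
PSME1: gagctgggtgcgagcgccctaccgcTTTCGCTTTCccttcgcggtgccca
PSME2: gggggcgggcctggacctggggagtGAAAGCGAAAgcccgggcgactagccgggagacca
Of the 7 genes with a RefSeq promoter in the table used (250 bases before to 50 after the start), GAAANNGAAA on either strand was found in 5, namely B2M, ERAP1, PSMB10, PSME1 and PSME2, and in 3.57% of 35116 promoters of the same length. GGGNNNNNCC was found in 5 of 7 and in 58.7% of all, CCAAT in 3 of 7 and 34.6%, and TGACG in 1 of 7 and 24.6%. The element found in CALR was in 0.0769% of all. Promoters of NLRC5 and PDIA3 were not matched.

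Across the 9 genes, stress over no stress was above 0 for 8 with a median log2 fold change of 0.37, against -0.01 over all tested genes. Of these, 1 was called, 4 had an unadjusted p under 0.05 (B2M, PSMB10, ERAP1 and NLRC5; 4033 of 15435 genes tested did), and 0 had groups without overlap, beside 8.79% of tested genes. Without stress tumour 4 the called members were 4, B2M, NLRC5, ERAP1 and PSMB10, where 1834 human genes were called in all against 1613 with every library.

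Post-stress tumours had mean levels of B2M, CALR and PDIA3 near those of the no-stress tumours. The fold was 0.792 for NLRC5 (95% interval 0.528 to 1.19) and 0.788 for ERAP2 (95% interval 0.583 to 1.06). Against no stress the fold was 0.983 for B2M (95% interval 0.722 to 1.34, edgeR adjusted p = 0.970). With edgeR 0 of the 9 genes were called, where 0.842% of tested human genes were. An unadjusted p under 0.05 was found for 0 of the 9, and for 2341 of 15435 genes tested. DESeq2, which called 504 human genes here, and limma-voom called 0 of the 9 as well. For 0 of the 9 did the groups not overlap, as they did not for 3.47% of tested genes. Of the 9 genes 1, PSME2, was above 0, and their median log2 fold change was -0.14 beside -0.01 over all tested genes. The lowest of the adjusted p values was that of ERAP2, at 0.457, where 3 of 5 post-stress tumours lay below the lowest no-stress tumour.

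The direct comparison of stress with post-stress tumours gave 0 calls with edgeR, where 0.0389% of tested human genes were called. B2M had a log2 fold change of 0.97 ± 0.21 (SE; adjusted p = 0.1003), NLRC5 1.10 ± 0.27 (SE; adjusted p = 0.136), ERAP1 0.50 ± 0.13 (SE; adjusted p = 0.132) and ERAP2 0.72 ± 0.21 (SE; adjusted p = 0.171). All 9 genes were above 0, and 5 had an unadjusted p under 0.05 (edgeR), as did 1716 of 15435 genes tested. The groups did not overlap for PSMB10 alone, where 1.70% of tested genes had that. DESeq2 called 4 (B2M, NLRC5, ERAP1 and PSMB10), with 203 human genes called in all, and limma-voom called 0 of the 9. Without stress tumour 4, edgeR called B2M (log2 fold change 1.15, adjusted p = 0.00156), NLRC5, ERAP2 and PSMB10, where 189 human genes were called in all against 6 with every library. The stress and the post-stress comparisons with no stress share the no-stress tumours, and the 2 comparisons of stress share the stress tumours.

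**Figure D3:**
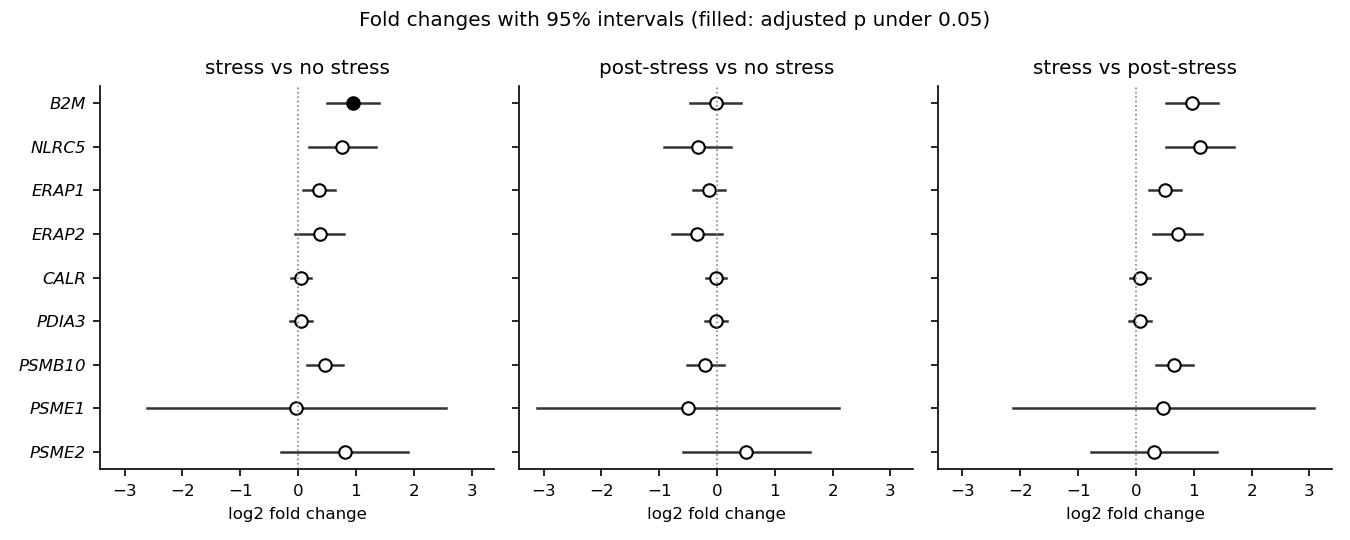
Log2 fold changes of the 9 genes in the 3 comparisons, with points for the edgeR estimate and lines for its 95% interval; the filled point marks an adjusted p under 0.05. B2M in stress over no stress (0.95) is the filled point, the intervals of CALR and PDIA3 are narrow around 0, and those of PSME1 are the widest.

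The genes inside the MHC that these members serve had few counts for the most part. HLA-B, a class I heavy chain, was called higher in stress against no stress (edgeR adjusted p = 0.00436), at 0.125 ± 0.0791 CPM without stress and 1.24 ± 0.637 CPM with stress (SD, n = 5), or at most 32 counts in any library. HLA-C, HLA-F, HLA-G, TAP1, TAP2, TAPBP, PSMB8 and PSMB9 had at most 24 counts in any library and were not tested, and HLA-E reached 12.5 CPM in its highest library. Such near-empty rows for genes that most cells use make levels in this region uncertain, and the cause was not tested.

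Of 12 other genes of peptide processing and loading, 0 were called higher and 2 lower between stress and no stress (1 higher and 3 lower without stress tumour 4). The 2 were the peptidases BLMH, which fell from 72.3 ± 5.64 to 53.2 ± 4.83 CPM (SD, n = 5; edgeR adjusted p = 0.00522), and THOP1, which fell from 87.1 ± 3.96 to 71.9 ± 6.49 CPM (SD, n = 5; adjusted p = 0.0462). TAPBPL, a relative of tapasin that edits the peptides of class I, had 33.5 ± 6.92 CPM without stress and 48.4 ± 9.24 CPM with stress (SD, n = 5; adjusted p = 0.0572). UGGT1, which recognises misfolded glycoproteins, had 225 ± 17.9 and 184 ± 34.6 CPM (SD, n = 5; adjusted p = 0.103).

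Other partners of B2M, listed together with AZGP1, were not called in any comparison (edgeR, 0 of 4, and DESeq2 and limma-voom 0). With an unadjusted p under 0.05 in edgeR there were 0 between stress and no stress, 1 between post-stress and no stress, and 1 between the restrained groups. HFE, a regulator of iron uptake, had 73.4 ± 8.03 CPM without stress and 65.3 ± 8.24 CPM with stress (SD, n = 5). MR1, which shows vitamin metabolites to T cells, had 62.0 ± 4.66 and 61.8 ± 5.00 CPM, and FCGRT, the chain of the neonatal Fc receptor, 16.1 ± 2.10 and 17.6 ± 3.06 CPM. AZGP1, a secreted protein related to class I chains, had 1.18 ± 0.858 CPM without stress, 0.856 ± 0.493 CPM with stress and 2.35 ± 1.13 CPM post-stress (SD, n = 5), from 6 to 55 counts per library. Among genes known to lower class I at the surface, 0 of 5 were called higher and 2 lower between stress and no stress (1 lower without stress tumour 4, 0 without no-stress tumours 1 and 5). WWP2, a ubiquitin ligase of that list, fell from 44.6 ± 2.89 to 37.5 ± 2.27 CPM (SD, n = 5; edgeR adjusted p = 0.0273; 0.0586 without stress tumour 4).

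The interferon-stimulated genes were high in the same stress tumours as B2M. Of 29 tested interferon-stimulated genes 20 were called higher and 0 lower between stress and no stress (median log2 fold change 1.32), and 0 were called post-stress against no stress (edgeR; 0 had an unadjusted p under 0.05, and DESeq2 and limma-voom called 0). Their mean log2 CPM was 7.66, 7.31, 7.65, 6.08 and 7.57 in stress tumours 1 to 5, between 4.96 and 6.78 in the no-stress tumours and between 5.44 and 6.32 in the post-stress tumours. Stress tumour 4 was thus within the range of the other groups for this list, as it was for B2M. Without it 26 of 29 were called; without no-stress tumours 1 and 5 together 1 of 29 was. Against post-stress, edgeR called 0 of 29 and limma-voom 0, while 28 had an unadjusted p under 0.05, DESeq2 called 24 and edgeR called 23 without stress tumour 4. The mouse share of stress tumour 4, 21.8%, lay between those of the other stress tumours (18.6% to 24.6%), and its summed leukocyte markers were 8.72 CPM.

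Among 13 tested genes of interferon reception and signalling, 4 were called higher in stress against no stress and 0 lower. Of these, STAT2, which carries the signal of type I interferons, rose from 109 ± 28.003 to 202 ± 52.6 CPM (SD, n = 5; edgeR adjusted p = 0.0255; 0.109 without no-stress tumours 1 and 5). IRF2, which binds the interferon response element, rose from 24.5 ± 3.18 to 35.1 ± 5.47 CPM (SD, n = 5; adjusted p = 0.00850). SOCS3, a feedback inhibitor of cytokine signalling, differed from the members in that it was called in both restrained groups, from 66.8 ± 11.5 CPM to 129 ± 23.0 CPM with stress (SD, n = 5; adjusted p = 0.00168) and 118 ± 17.9 CPM post-stress (SD, n = 5; adjusted p = 0.0104); that difference between the genes was not tested. Leaving out stress tumour 4, 6 of the 13 were called, and without no-stress tumours 1 and 5 together 2 were. Of all the lists above, RFX5 and SOCS3 were the genes called between post-stress and no stress. Between stress and post-stress edgeR called 0 of them, with an unadjusted p under 0.05 for 5 of 13 genes of interferon signalling, 4 of 12 of peptide processing and 1 of 8 partners of NLRC5, and DESeq2 called 2 of the 13.

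**Figure D4:**
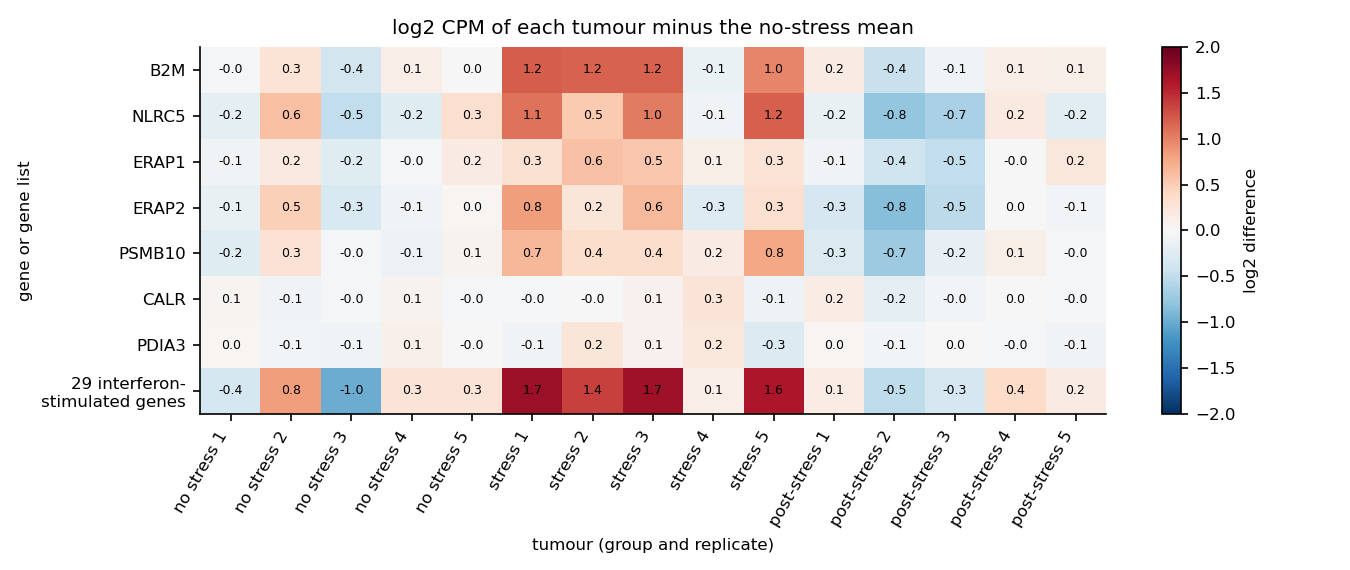
Difference of each tumour's log2 CPM from the no-stress mean, with genes in rows, the mean of 29 interferon-stimulated genes in the bottom row and the 15 tumours in columns; red is higher and blue lower. The first 5 rows and the bottom row lie between 0.24 and 1.71 in stress tumours 1, 2, 3 and 5 and between -0.27 and 0.16 in stress tumour 4, and the rows of CALR and PDIA3 lie between -0.27 and 0.26 in all 15 tumours.

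Genes with a mean of at least 10 CPM numbered 9454, members included. The non-members among them most like B2M over the 15 tumours were TDRD7, MX1, LGALS3BP, IFIH1 and IFI35, with Pearson's r of log2 CPM from 0.967 to 0.974. From deviations around each group's mean, which leave out the differences between groups, they were MYD88, MX1, TDRD7, PARP9 and BTN3A3 (r = 0.928 to 0.941). MX1 ranged from 54.7 to 352 CPM and TDRD7 from 41.2 to 90.3 CPM over the tumours in which B2M ranged from 254 to 803 CPM. These values describe tumours that share their groups and their stress tumour 4, and carry no test.

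Among the members, B2M, NLRC5, ERAP1, ERAP2 and PSMB10 varied together, with r between 0.741 and 0.924 over the 15 tumours for their 10 pairs. CALR and PDIA3 varied with each other (r = 0.657), while their r with B2M was 0.02 each. PSME1 had r = 0.08 with B2M and -0.28 with PSME2, the other subunit of PA28. Around group means the r of B2M was 0.777 with NLRC5, 0.828 with ERAP2, 0.638 with ERAP1 and 0.570 with PSMB10. It was -0.29 with CALR and -0.22 with PDIA3. For the 10 pairs named above, r around group means ran from 0.415 (ERAP1 with PSMB10) to 0.883 (NLRC5 with ERAP2).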

How the data were processed

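RNA-seq counts of 15 A549 xenografts were used. Per the labels, TRIzol was used for RNA and the Abclonal Fast RNA-seq kit for libraries. The submitters' processing notes name Trimmomatic (0.39), HISAT2 (2.2.1) and featureCounts (2.0.6) with hg38 and mm10. The authors deposited raw read counts per human and mouse gene. Strand setting, annotation release and how reads were parted between species: not given in the sources used here. Table columns headed Control, Pre and Post were matched by name and number to the no-stress, stress and post-stress titles.

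Human counts were taken alone. Filtering with filterByExpr left 15435 genes (99.8% of human counts), which were scaled by TMM and fitted over all 15 libraries in edgeR's quasi-likelihood model (edgeR 4.0.16, limma 3.58.1, DESeq2 1.42.0, R 4.3.3), with Benjamini-Hochberg adjustment within each of 3 comparisons and a threshold of 0.05. SE is the log2 fold change divided by the root of F. The biological coefficient of variation was 0.187. The procedure was tested on simulated data. Symbols came from a table of gene names, coordinates from GENCODE, promoters from RefSeq. Similarity used log2 CPM with a prior count of 2.

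Members and lists were chosen with earlier results of these data known. Named were the 9 members, up to 4 genes per other list by smallest p between stress and no stress, any called gene of a list with few calls, and the 5 genes most like B2M; HLA rows, markers and chromosome 14 neighbours were named after their values were seen. Alternatives were other scalings, DESeq2, limma-voom, other filters, fewer groups, the mouse share as a covariate, a replicate block and leaving out libraries. Mouse counterparts were not analysed here, and some listed genes and a motif are left out of the text.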

Additional observations from a re-analysis of the deposited data

Results flagged for a closer look

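B2M in the stress group was singled out because its lowest tumour lay far from the rest: stress tumour 4 had 314.9 CPM, and its gap to the next tumour was 0.761 of the group's whole range, above the critical value of 0.71 for 5 samples at the 95% level. Of 27 groups examined (9 genes in 3 groups), 1 was singled out, and chance does so in about 1 in 20 groups. The same tumour had the lowest NLRC5 (47.0 CPM), ERAP1 (48.0 CPM), ERAP2 (8.52 CPM) and PSMB10 (16.6 CPM) of the stress group, and its highest CALR (607 CPM). It also had the lowest PSME1 (2.50 CPM), which was near-empty in stress tumours 3 and 5 as well. Its PDIA3 (431 CPM) and PSME2 (85.0 CPM) were not the lowest of the group.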

How the results depend on the processing

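The count of members called in stress against no stress, 1, was 3 with DESeq2's Wald test, 2 with no filter on low counts, 3 with only the groups compared in the fit and 0 without no-stress tumours 1 and 5, and ran from 1 to 4 when each library was left out. Other scalings, a CPM of at least 1 in 5 libraries, limma-voom and the mouse share as a covariate left it at 1. In stress against post-stress the count of 0 was 4 with DESeq2's Wald test and 1 with no filter, and 0 to 4 when each library was left out. B2M between stress and no stress kept an adjusted p of at most 0.0455 in the 24 other settings, the replicate block included, and its log2 fold change ran from 0.87 to 1.13 in all 25.

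PSME1 changed sign: in stress against no stress it was 0.022 with the mouse share as a covariate, 0.39 without no-stress tumours 1 and 5, and -0.66 to 0.29 with each library left out; in stress against post-stress it was -0.29 with limma-voom and -0.17 to 1.08 with each library left out. Values near 0 also crossed it with a library left out, CALR from -0.0014 to 0.093 in stress against no stress, and in post-stress against no stress B2M from -0.10 to 0.079, CALR from -0.058 to 0.032 and PDIA3 from -0.032 to 0.014. The causes were not tested.

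All human genes called numbered 1613, 130 and 6 in the 3 comparisons. With the replicate block they were 990, 57 and 0, and the members called 1, 0 and 0, with B2M at 0.92 (adjusted p = 0.0455). Same-numbered tumours did not deviate together (correlations -0.19 to 0.12, 1 of 15 libraries closest to its own number). In post-stress against no stress the 130 were 504 with DESeq2, 49 with only the groups compared, 38 with the mouse share, 32 without no-stress tumours 1 and 5 and 37 to 144 with each library left out. The 6 were 203 with DESeq2, 36 with no filter, 1 with only the groups compared, 0 with the mouse share and 0 to 189 with each library left out. The 1613 were 2167 with DESeq2, 1200 with no filter, 546 without no-stress tumours 1 and 5 and 661 to 1834 with each library left out. ERAP2 and PSMB10 had the fewest counts among the members not on chromosome 14, at 83 to 242 and 132 to 361 per library.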
